A study of Mus musculus with 9 samples.

Results

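The 46 genes described here drive DNA replication and cell division in RAW264.7 cells, a mouse macrophage line. They were taken by symbol from a table of FPKM values for 54532 genes. FPKM is the reads of a gene scaled to its length and to a library size, which is set beside the reads on genes below. All 46 were found, and all 46 were among the 11585 genes kept for testing, those with FPKM 1 or above in 3 or more of the 9 libraries. They were sorted by role into 12 genes of replication licensing and the replicative helicase, 4 of DNA synthesis and nucleotide supply, 7 regulators of G1 and the G1/S transition, 20 of G2 and mitosis, and 3 inhibitors of cyclin-dependent kinases (CDKs). The cells, labelled as wild type and as coming from ascites, formed 3 groups of 3 libraries. Control cells received no treatment, and their culture time is not given. LPS cells were held for 6 h in medium with lipopolysaccharide, a component of the bacterial outer membrane, at 1 μg/ml. LPS + G-CDs cells received the same LPS together with G-CDs, carbon dots made from Glycyrrhiza by hydrothermal treatment, at 400 μg/ml for 6 h. The titles of these last samples name G-CDs, whereas their treatment label names LPS alone. There was no group with G-CDs and without LPS, and the labels do not state whether the 3 libraries of a group came from separate cultures, so that p-values measure the spread between these libraries, which may be technical.

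Before S phase, origins are licensed in G1 when Cdc6 and Cdt1 load the ring of Mcm2 to Mcm7 onto DNA, and the ring becomes an active helicase when Cdc45 and the GINS complex join it. Transcription of these genes is driven by E2F factors, which are set free when cyclin D and cyclin E kinases phosphorylate the retinoblastoma protein. Genes of G2 and mitosis are transcribed later in the cycle, through CCAAT boxes and a cell cycle homology region (CHR) that the MuvB complex binds. Macrophages stimulated with LPS are known to stop dividing, whereas cultured RAW264.7 cells divide continuously.

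The promoters of the genes differed in these elements, and 5 are shown so that the elements can be read beside the values that follow. RefSeq windows from 250 bases before to 50 bases after a transcription start (GRCm38.p6) were on hand for 36 of the 46 genes, in 40 windows. Those of 3 licensing genes are printed 5′ to 3′ in lower case, with the E2F words TTTCCCGC, TTTCGCGC, TTTGCCGC and TTTGGCGC in capitals on either strand, overlapping words being joined. The windows are chr1:128359656-128359955 on the minus strand for Mcm6, chr8:75109259-75109558 on the plus strand for Mcm5 and chr11:98907901-98908200 on the plus strand for Cdc6.
Mcm6: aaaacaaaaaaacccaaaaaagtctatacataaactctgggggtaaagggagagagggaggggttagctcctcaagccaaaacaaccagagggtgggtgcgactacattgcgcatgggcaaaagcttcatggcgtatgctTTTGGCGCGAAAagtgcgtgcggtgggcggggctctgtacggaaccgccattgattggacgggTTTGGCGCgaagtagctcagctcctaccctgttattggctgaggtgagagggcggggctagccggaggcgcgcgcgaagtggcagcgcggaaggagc
Mcm5: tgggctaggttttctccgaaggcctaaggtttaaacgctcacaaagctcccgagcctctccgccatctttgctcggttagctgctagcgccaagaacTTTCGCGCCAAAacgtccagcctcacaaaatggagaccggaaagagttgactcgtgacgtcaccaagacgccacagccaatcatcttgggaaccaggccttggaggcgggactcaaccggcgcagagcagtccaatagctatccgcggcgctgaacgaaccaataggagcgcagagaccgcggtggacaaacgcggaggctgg
Cdc6: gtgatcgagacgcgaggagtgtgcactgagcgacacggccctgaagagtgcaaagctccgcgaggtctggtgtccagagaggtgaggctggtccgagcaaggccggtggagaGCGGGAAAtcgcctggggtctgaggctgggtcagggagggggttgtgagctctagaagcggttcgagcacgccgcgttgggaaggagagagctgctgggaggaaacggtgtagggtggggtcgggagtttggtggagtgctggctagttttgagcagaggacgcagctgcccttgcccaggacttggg
Mcm6 held 3 such words, Mcm5 held 2 and Cdc6 held 1. At least 1 of these words was present in 6 of the 10 licensing and helicase windows (those of Cdc6, Cdt1, Mcm3, Mcm5, Mcm6 and Mcm7). Such a word was present in 0 of the 4 DNA synthesis windows, 2 of the 5 G1/S windows and 0 of the 5 CDK inhibitor windows. The windows of Ccne1 and E2f1 held none. The share was 1 of the 16 windows of G2 and mitotic genes, and 2.3% of all 32851 promoter windows.

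A pair of mitotic promoters is shown in the same way, with the CCAAT box (CCAAT, or ATTGG on the other strand) and the CHR word (TTTGAA, or TTCAAA) in capitals. The windows are chr9:70421505-70421804 for Ccnb2, which encodes cyclin B2, and chr7:135716330-135716629 for Mki67, which encodes the proliferation marker Ki-67, both on the minus strand.
Ccnb2: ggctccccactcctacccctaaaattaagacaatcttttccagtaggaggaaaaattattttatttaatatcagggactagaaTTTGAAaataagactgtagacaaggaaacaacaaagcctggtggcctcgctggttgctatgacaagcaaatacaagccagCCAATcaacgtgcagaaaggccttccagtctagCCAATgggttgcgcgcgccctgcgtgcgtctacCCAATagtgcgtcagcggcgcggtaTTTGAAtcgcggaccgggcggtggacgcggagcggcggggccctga
Mki67: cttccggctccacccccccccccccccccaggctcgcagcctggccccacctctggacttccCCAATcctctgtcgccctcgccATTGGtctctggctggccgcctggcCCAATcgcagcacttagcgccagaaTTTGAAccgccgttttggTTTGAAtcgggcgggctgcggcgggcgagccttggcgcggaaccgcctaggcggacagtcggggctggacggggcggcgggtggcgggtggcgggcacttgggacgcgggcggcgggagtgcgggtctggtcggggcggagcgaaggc
Both windows held 3 CCAAT boxes and 2 CHR words. A CHR word was found in 75.0% of the G2 and mitotic windows, in 20.0% of the licensing and helicase windows and in 17.9% of all windows. The CCAAT box was more common, being found in 93.8%, 80.0% and 37.4% of these windows, respectively. A match of letters is a description of the window and not evidence that a factor bound there.

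Sequencing placed between 14752400 and 17312255 reads on genes in each library, and the 46 genes held between 1 read (Myc, in a control library) and 15284 reads per library. The library size behind the FPKM values was 1.11 to 1.14 times the reads on genes in control libraries. It was 0.93 to 0.94 times those reads in LPS libraries and 0.88 to 0.98 times in LPS + G-CDs libraries, so this scaling differed by group. Of 10 macrophage markers, 9 were above an FPKM of 1 in every library and Mertk was at 0 in every library. All 11 markers of other cell types were below 1 in every library, 7 of them at 0 throughout, with a summed FPKM between 0.487 and 0.861 and with overlapping ranges in the 3 groups. LPS libraries resembled one another more closely (correlations of 0.987 to 0.988 over the tested genes) than control libraries (0.94 to 0.969) or LPS + G-CDs libraries (0.935 to 0.975). The 3 response genes Tnf, Il1b and Nos2 summed to 35.3 to 67.8 FPKM in control libraries and to at least 2807 in every library with LPS. Part of the spread among LPS + G-CDs libraries ran with gene length, and its size in the cell cycle genes is given with that comparison.

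Whether LPS altered the cell cycle program was addressed first, in LPS against control libraries. A majority of the genes were lower after LPS, and the falls were largest among the regulators of G1/S and the licensing genes. Of the 46 genes, 25 fell, 2 rose (Myc and Cdkn1a) and 19 did not pass the test, so that 58.7% changed, against a background of 31.3% of all 11585 genes called in either direction, 15.6% lower and 15.8% higher (limma on log2(FPKM + 1) with Benjamini-Hochberg adjustment over all tested genes, adjusted p under 0.05). The median log2 fold change was -0.52 over the 46 genes and 0.02 over all tested genes. Taken library by library against the control mean, the median of the 46 genes was -0.53, -0.51 and -0.52 in the LPS libraries and 0.08, 0.01 and -0.03 in the control libraries. LPS values lay wholly below control values for 31 genes (background 25.1%) and wholly above for 4 (background 27.4%). In RNA from whole cultures, fewer cells in a cycle phase and less RNA of a gene per cell cannot be told apart.

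**Figure D1:**
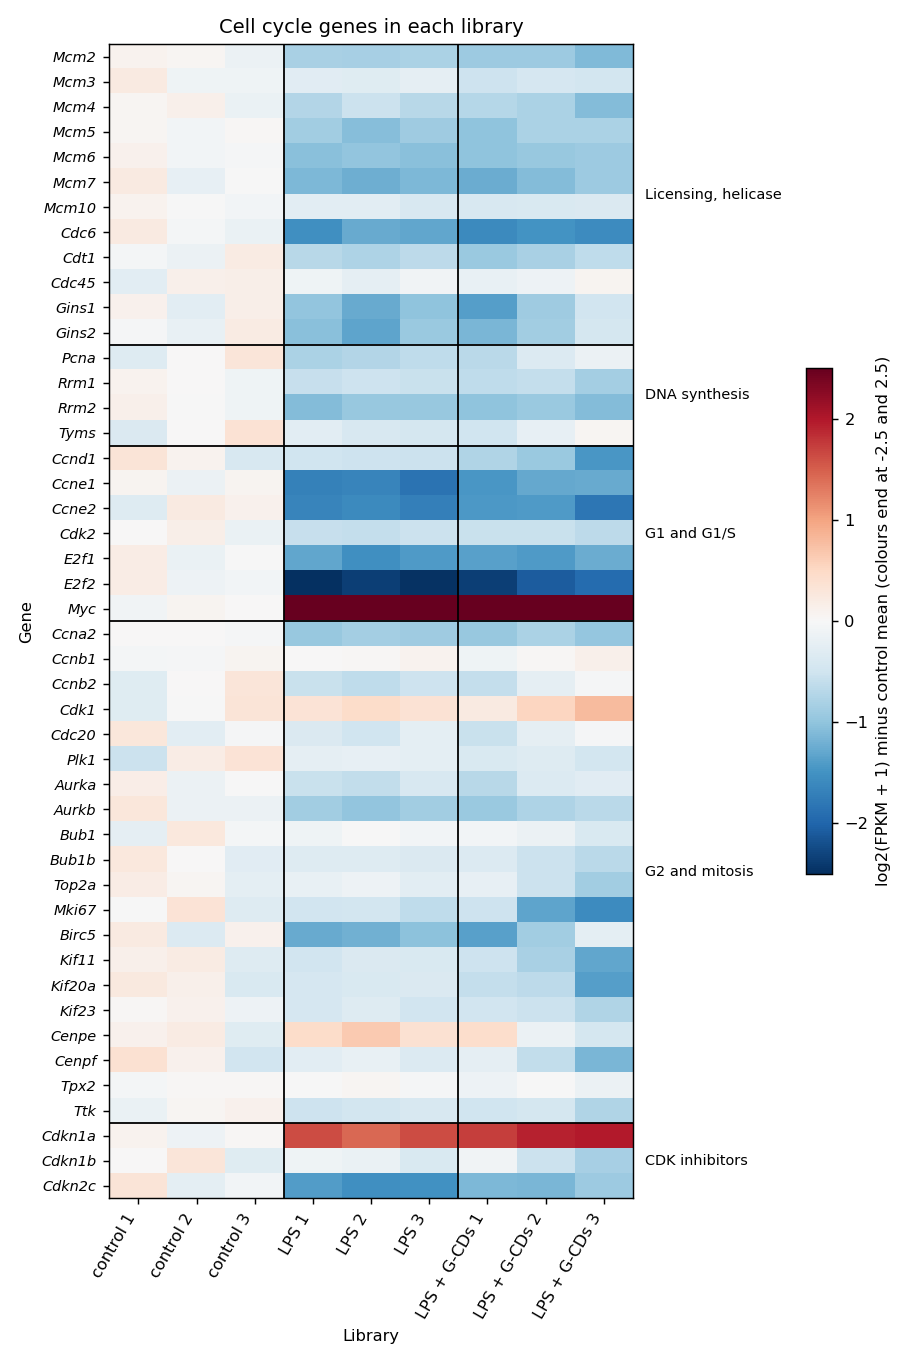
Each row is 1 of the 46 genes, grouped by role, and each column 1 of the 9 libraries; colour gives log2(FPKM + 1) minus the control mean of that gene, with the scale ending at -2.5 and 2.5. Most licensing, DNA synthesis and G1/S rows are blue in LPS and LPS + G-CDs libraries (Cdc45 and Tyms are above the control mean in LPS + G-CDs 3), Myc (log2 fold change 5.04, past the end of the scale) and Cdkn1a are red there, and the G2 and mitotic rows are paler and more mixed.

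The scale of the values moved the baseline but not the direction of these calls. When each library was rescaled to TPM, so that all libraries summed to the same total, the median of all genes shifted to -0.23 and that of the 46 genes to -0.80, so that the gap between them changed little. The share of all called genes that were higher went from 50.3% to 24.7% with TPM, whereas the cell cycle genes numbered 2 higher and 29 lower. All 27 called genes were also called with TPM, in the same direction, and 22 of the 27 were called under each of 18 alternative settings. The exceptions were Aurka, Kif23, Mcm10, Pcna and Ttk. Calls were lost without control 1 (Aurka, Kif23 and Mcm10), control 2 (Kif23, Mcm10, Pcna and Ttk), control 3 (Aurka, Mcm10, Pcna and Ttk), LPS 1 or LPS 2 (all 5), LPS 3 (all but Aurka) or LPS + G-CDs 2 (Kif23 and Mcm10). The call of Mcm10 was also lost with voom, without the mean-variance trend and with the replicate number as a block, and was kept in 8 of the 18 settings in all.

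Genes of replication licensing and the helicase fell together, with 10 of 12 lower, none higher and a median log2 fold change of -0.88. Cdc6, the loader of the helicase, had an FPKM of 17.3, 14.2 and 13.1 in the control libraries and of 4.40, 5.55 and 5.42 in the LPS libraries. Every LPS library lay well below every control library, and the LPS mean was 34.6% of the control mean (log2 fold change -1.37, SE 0.13, adjusted p = 8.2e-05). Mcm7, a subunit of the helicase ring, went from 62.7, 46.3 and 53.8 to 24.2, 22.6 and 24.2, which was 43.5% of the control mean (log2 fold change -1.16, SE 0.14, adjusted p = 0.00034). The groups were far apart, although 26.0% of the 50-base words of the Mcm7 transcript also occur in transcripts of another gene, Gm5487, so that its level is less certain.

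The other licensing genes whose promoters are printed above behaved alike. Mcm6 fell from 68.6 ± 4.45 to 33.1 ± 0.88 FPKM (SD, n = 3) and Mcm5 from 103.5 ± 4.54 to 53.3 ± 4.08, to about 48.2% and 51.5% of the control means (adjusted p = 0.00010 and 0.00041). The GINS subunits fell to a similar degree. Gins1 went from 24.7, 18.6 and 25.3 to 10.98, 8.84 and 10.7 (log2 fold change -1.09, SE 0.22, adjusted p = 0.0058). Gins2 was a low gene with 7.59, 6.74 and 9.09 FPKM in control libraries and 3.25, 2.53 and 3.61 in LPS libraries (log2 fold change -1.09, SE 0.20, adjusted p = 0.0029). Mcm2, Mcm4, Cdt1 and Mcm10 also fell, by 0.31 to 0.81 on the log2 scale. Mcm10, which helps to activate the helicase, was the least certain of these (log2 fold change -0.31, adjusted p = 0.041, and 0.051 with the replicate number as a block). A pair of genes did not pass the test, Mcm3 (log2 fold change -0.26, 95% interval -0.56 to 0.03) and Cdc45 (-0.14, -0.46 to 0.18). The Mcm3 window held E2F words and that of Cdc45 held none.

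Of the 4 genes of DNA synthesis and nucleotide supply, 3 fell and the median log2 fold change was -0.63. Rrm2, the S-phase subunit of ribonucleotide reductase, which makes deoxynucleotides, fell from 88.0, 80.8 and 74.7 to 37.8, 41.8 and 41.7 FPKM (log2 fold change -0.99, adjusted p = 0.00025). Its partner Rrm1 fell by less, to 67.3% of the control mean (log2 fold change -0.55, adjusted p = 0.0058). Pcna, the sliding clamp of DNA polymerase, went from 118.1 ± 26.0 to 70.4 ± 4.25 (SD, n = 3; adjusted p = 0.022), a call that was kept in 13 of 18 alternative settings. Tyms, thymidylate synthase, did not pass (log2 fold change -0.38, 95% interval -0.83 to 0.08). Pcna shares 31.8% of its 50-base words with a pseudogene, Pcna-ps2, and is uncertain to that extent.

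The steepest falls were among the regulators of G1 and G1/S, where 5 of 7 genes fell, Myc rose and Ccnd1 did not pass the test, with a median log2 fold change of -1.41. E2f2, a transcription activator of the E2F family, had the largest fall of all 46 genes. Its FPKM was 15.0, 11.8 and 12.3 in control libraries and 1.47, 1.75 and 1.52 in LPS libraries, which was 12.1% of the control mean (log2 fold change -2.44, SE 0.15, adjusted p = 3.7e-06). E2f1, the founding member of that family, fell from 27.3, 21.4 and 23.8 to 9.24, 7.69 and 8.40 (log2 fold change -1.41, SE 0.12, adjusted p = 4.2e-05). Both genes were therefore lower in every LPS library than in any control library.

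The cyclins E, which activate Cdk2 for entry into S phase, fell about as far. Ccne1 had 23.8, 20.3 and 23.9 FPKM in control and 6.33, 6.53 and 5.56 in LPS libraries (27.1% of the control mean, log2 fold change -1.73, SE 0.12, adjusted p = 8.5e-06). Ccne2 had 8.31, 12.6 and 11.6 in control and 2.71, 2.86 and 2.56 in LPS libraries (24.97%, log2 fold change -1.66, SE 0.17, adjusted p = 0.00010). Their kinase partner Cdk2 fell only to 64.7% of the control mean (log2 fold change -0.57, adjusted p = 0.0046). Ccnd1, cyclin D1, which links growth signals to the cell cycle, was listed at 131.7, 112.2 and 79.4 FPKM in control libraries and at 74.8, 73.5 and 72.6 in LPS libraries. All LPS values lay below all control values, but control libraries were widely spread and the call was not reached (log2 fold change -0.51, SE 0.23, adjusted p = 0.12), whereas with the replicate number as a block the adjusted p was 0.044.

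Myc moved the other way and by far the most. Myc (chr15:61985391-61990374, plus strand) encodes the transcription factor c-Myc, which promotes growth and entry into the cycle. Control libraries held 1, 6 and 4 reads of Myc, or 0.0196, 0.13 and 0.0827 FPKM, and LPS libraries held 1282, 1244 and 1423 reads, or 34.1, 33.2 and 36.0 FPKM. Myc was thus at the edge of detection in control libraries and well measured in every LPS library. Its reads, relative to the library size behind FPKM, were 456-fold higher in LPS libraries (exact 95% interval 255 to 915, for counting error only). That size was above the reads on genes in control libraries and below them in LPS libraries, so the ratio would be smaller against reads on genes. The log2 fold change of Myc was 5.04 (SE 0.12, adjusted p = 1.8e-08), a value that the pseudocount of 1 holds down. With TPM the log2 fold change was 6.31.

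The paralog Mycn, which is not one of the 46 genes but belongs to a list of 11 partners and relatives of Myc, was abundant in control cells and fell. Its FPKM was 362.9, 280.3 and 288.1 in control libraries and 130.4, 118.0 and 134.5 in LPS libraries (log2 fold change -1.27, SE 0.15, adjusted p = 0.00026), in the same direction and called in all 18 alternative settings. On the FPKM scale, which corrects for length, Mycn was still above Myc in every LPS library. Of the 9 genes of that list that could be tested, 3 rose, namely Max (log2 fold change 0.80), the obligate partner of both proteins, Mxd1 (0.89), an antagonist that also binds Max, and Mlx (0.66), and 3 fell, namely Mycn and the Max-binding repressors Mnt (-0.66) and Mxi1 (-0.60), against 15.8% of all tested genes higher and 15.6% lower. Mnt was called in 17 of 18 alternative settings and Mlx and Mxi1 in 14 each.

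**Figure D2:**
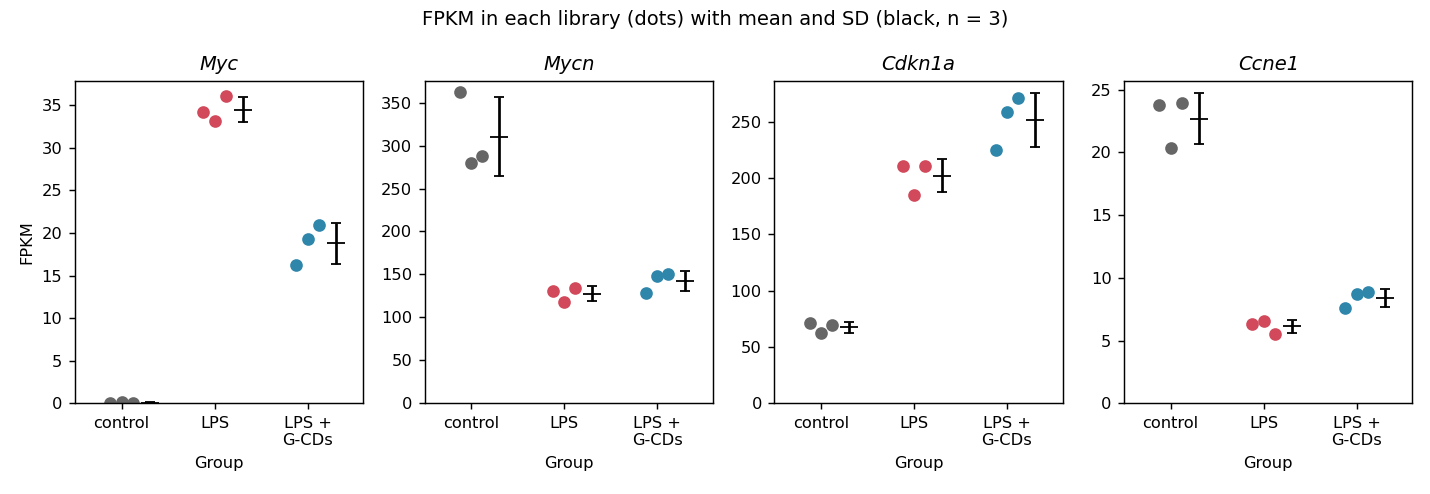
FPKM of Myc, Mycn, Cdkn1a and Ccne1 in each library (dots), with the group mean and SD beside them (black, n = 3); every axis starts at 0. Myc goes from near 0 to about 34.4 with LPS and is at 16.2 to 20.9 in LPS + G-CDs libraries, whereas Mycn and Ccne1 fall with LPS and Cdkn1a rises.

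Of the 20 genes of G2 and mitosis, 6 fell, none rose and 14 did not pass, with a median log2 fold change of -0.37. The share called, 30%, consisted of lower genes alone, and over all tested genes 15.6% were called lower and 15.8% higher. The number that fell was 10 after removal of the gene-length trend, 3 without LPS 1 or LPS 2, and 4 without LPS 3, control 2 or control 3. Birc5, which encodes survivin of the chromosomal passenger complex, fell the most, from 35.5, 23.5 and 32.5 FPKM to 11.9, 12.5 and 14.2 (log2 fold change -1.17, SE 0.27, adjusted p = 0.010). Aurkb, the kinase of the same complex, fell to 51.9% of the control mean (log2 fold change -0.91, adjusted p = 0.0014), and Ccna2, cyclin A2, which acts in S phase as well as in G2, to 53.1% (-0.89, adjusted p = 0.00022). Aurka, a spindle pole kinase, Ttk, a kinase of the spindle checkpoint, and Kif23, a kinesin of the central spindle, fell by 0.41 to 0.53 on the log2 scale.

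The kinase of mitotic entry and its cyclin did not pass the test. Ccnb1, cyclin B1, was at 49.3, 50.1 and 53.1 FPKM in control and at 51.1, 52.0 and 53.8 in LPS libraries (log2 fold change 0.04, 95% interval -0.21 to 0.29), although 42.1% of its 50-base words occur in other transcripts, Ccnb1-ps in the first place. Cdk1, its kinase, was at 20.7, 25.8 and 32.5 in control and at 33.3, 36.0 and 33.3 in LPS libraries. These values did not overlap and were higher with LPS, yet the test was not passed (log2 fold change 0.39, SE 0.19, adjusted p = 0.16). Tpx2, a spindle assembly factor, was at 47.1 ± 1.46 and 47.1 ± 1.37 FPKM (SD, n = 3), with a 95% interval of the log2 fold change from -0.23 to 0.23. Cenpe, a kinetochore motor, was at 13.7, 14.7 and 10.1 FPKM in control and at 17.9, 20.4 and 16.9 in LPS libraries. Its LPS values also lay wholly above without passing the test (log2 fold change 0.50). Ccnb1, Cdk1, Tpx2 and Cenpe were picked for mention after their values were seen.

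A pair of mitotic genes with large differences fell short of the threshold. Ccnb2, whose promoter is printed above, was at 53.5, 67.0 and 82.2 FPKM in control and at 45.1, 42.4 and 46.4 in LPS libraries (log2 fold change -0.57, SE 0.19, adjusted p = 0.051), and it passed with the replicate number as a block (adjusted p = 0.022) and in 9 of 18 alternative settings in all. Mki67 was at 63.6, 81.5 and 51.0 in control and at 45.98, 46.6 and 41.0 in LPS libraries (log2 fold change -0.52, SE 0.27, adjusted p = 0.18). Control 3, which stood apart along gene length (values given below), had the highest Ccnb2 and the lowest Mki67 of the control libraries. After removal of the gene-length trend both were called lower, Ccnb2 at -0.59 (adjusted p = 0.0043) and Mki67 at -0.72 (adjusted p = 0.0075), as were Cenpf and Top2a.

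The 3 CDK inhibitors each behaved differently. Cdkn1a, which encodes p21, an inhibitor of cyclin E and cyclin A kinases, was at 71.6, 62.1 and 69.4 FPKM in control and at 210.9, 185.1 and 210.9 in LPS libraries (log2 fold change 1.57, SE 0.14, adjusted p = 3.7e-05). Every LPS library was far above every control library, and the LPS mean was 298.8% of the control mean. Cdkn2c, which encodes p18, an inhibitor of Cdk4 and Cdk6, fell from 15.9, 10.3 and 11.9 to 4.15, 3.69 and 3.74 (log2 fold change -1.47, SE 0.16, adjusted p = 0.00013). Cdkn1b, which encodes p27, had 8.26, 10.3 and 6.49 FPKM in control and 7.58, 7.18 and 6.08 in LPS libraries, with overlapping groups (log2 fold change -0.22, SE 0.21, adjusted p = 0.47).

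Longer lists of genes of the pathway, from which the 46 genes were left out, were described in the same way. Of 51 further DNA replication genes, 32 fell and 2 rose (median log2 fold change -0.71), and of 70 further mitotic and spindle genes, 30 fell and 0 rose (median -0.40). Over all tested genes 15.6% were lower and 15.8% higher, so that the falls in both lists were more frequent than this background and the rises less frequent. Tk1, thymidine kinase, Ung, a uracil glycosylase, and Gmnn, geminin, which restrains Cdt1, fell the most among the replication genes, with log2 fold changes of -2.51, -2.34 and -2.34. In the mitotic list the largest falls were those of Fbxo5 (-1.57), an inhibitor of the anaphase-promoting complex, Cdca3 (-1.28) and Cdca5 (-1.27), which encodes sororin. The 2 replication genes that rose were Dck (0.74), deoxycytidine kinase of the salvage pathway, and Orc1 (0.48), a subunit of the origin recognition complex, which was called in 12 of 18 alternative settings.

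Among 24 further genes of G1/S control, 9 fell and 3 rose, beside backgrounds of 15.6% lower and 15.8% higher, the rises being near theirs. The median of these 24 genes, -0.26, was nearer to 0 than that of the 7 G1/S regulators or of the further mitotic genes. The largest falls were in E2f8 (-1.45) and E2f7 (-0.998), which are among the repressors of the E2F family, and in Rbl2 (-1.16), which encodes the pocket protein p130. Cdk6 (1.07), the partner of the cyclins D, Ccnd2 (0.82), cyclin D2, and E2f5 (0.40) rose. Of these rises, that of Ccnd2 was called in 10 of 18 alternative settings and that of E2f5 in 12. In a list of 22 further inhibitors and p53 targets, of which 19 could be tested, 6 rose and 7 fell, both above the background shares of 15.8% and 15.6%. Gadd45b, a stress sensor, went from 5.03, 4.18 and 5.62 FPKM to 102.9, 100.1 and 104.5 (log2 fold change 4.13), and Sesn2 (1.96) and Btg2 (1.13) also rose. Sesn1 (-2.18), Phlda3 (-1.50) and Chek2 (-1.32), a checkpoint kinase, fell, so that targets of p53 went in both directions beside Cdkn1a.

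Whether G-CDs altered these genes in the presence of LPS was addressed by the LPS + G-CDs and LPS libraries. Of the 46 genes, 1 changed, and it was Myc, which fell. No gene rose. In all, 0.492% of the 11585 tested genes were called, 0.242% lower and 0.25% higher, and at an unadjusted p under 0.05 there were 3 higher and 4 lower among the 46 genes, against 7.19% higher and 8.04% lower of all tested genes. The median log2 fold change was -0.03 over the 46 genes and 0.02 over all genes, and with TPM it was -0.19 over the 46 genes and -0.14 over all genes. For the roles the median was -0.0005 (licensing and helicase), 0.07 (DNA synthesis), 0.07 (G1/S), -0.12 (mitosis) and 0.31 (CDK inhibitors). In the same order the medians with TPM were -0.165, -0.087, -0.085, -0.29 and 0.144, so that the sign for DNA synthesis and G1/S depended on the scale.

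Myc was at 34.1, 33.2 and 36.0 FPKM in LPS libraries and at 16.2, 19.3 and 20.9 in LPS + G-CDs libraries, or 54.6% of the LPS mean. Every LPS + G-CDs library lay below every LPS library and far above every control library. By reads relative to the library size behind FPKM the ratio was 0.545 (exact 95% interval 0.518 to 0.574, for counting error only). By the test across all genes the log2 fold change was -0.85 (SE 0.12, adjusted p = 0.023). The direction held in all 18 alternative settings, whereas the call was kept in 11 of them, with an adjusted p of at most 0.204. It was lost with a pseudocount of 0.1, with voom on the recovered reads, and without control 2, LPS 1, LPS 2, LPS 3 or LPS + G-CDs 2. After removal of the gene-length trend the fall was -0.99 with an adjusted p of 0.0015. Mycn, by contrast, was at 127.7 ± 8.61 FPKM with LPS and 142.5 ± 12.01 with LPS + G-CDs (SD, n = 3; log2 fold change 0.16, adjusted p = 0.53), and none of the 173 further genes tested was called, with 11 higher and 11 lower at an unadjusted p under 0.05, near the shares of all genes given above.

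**Figure D3:**
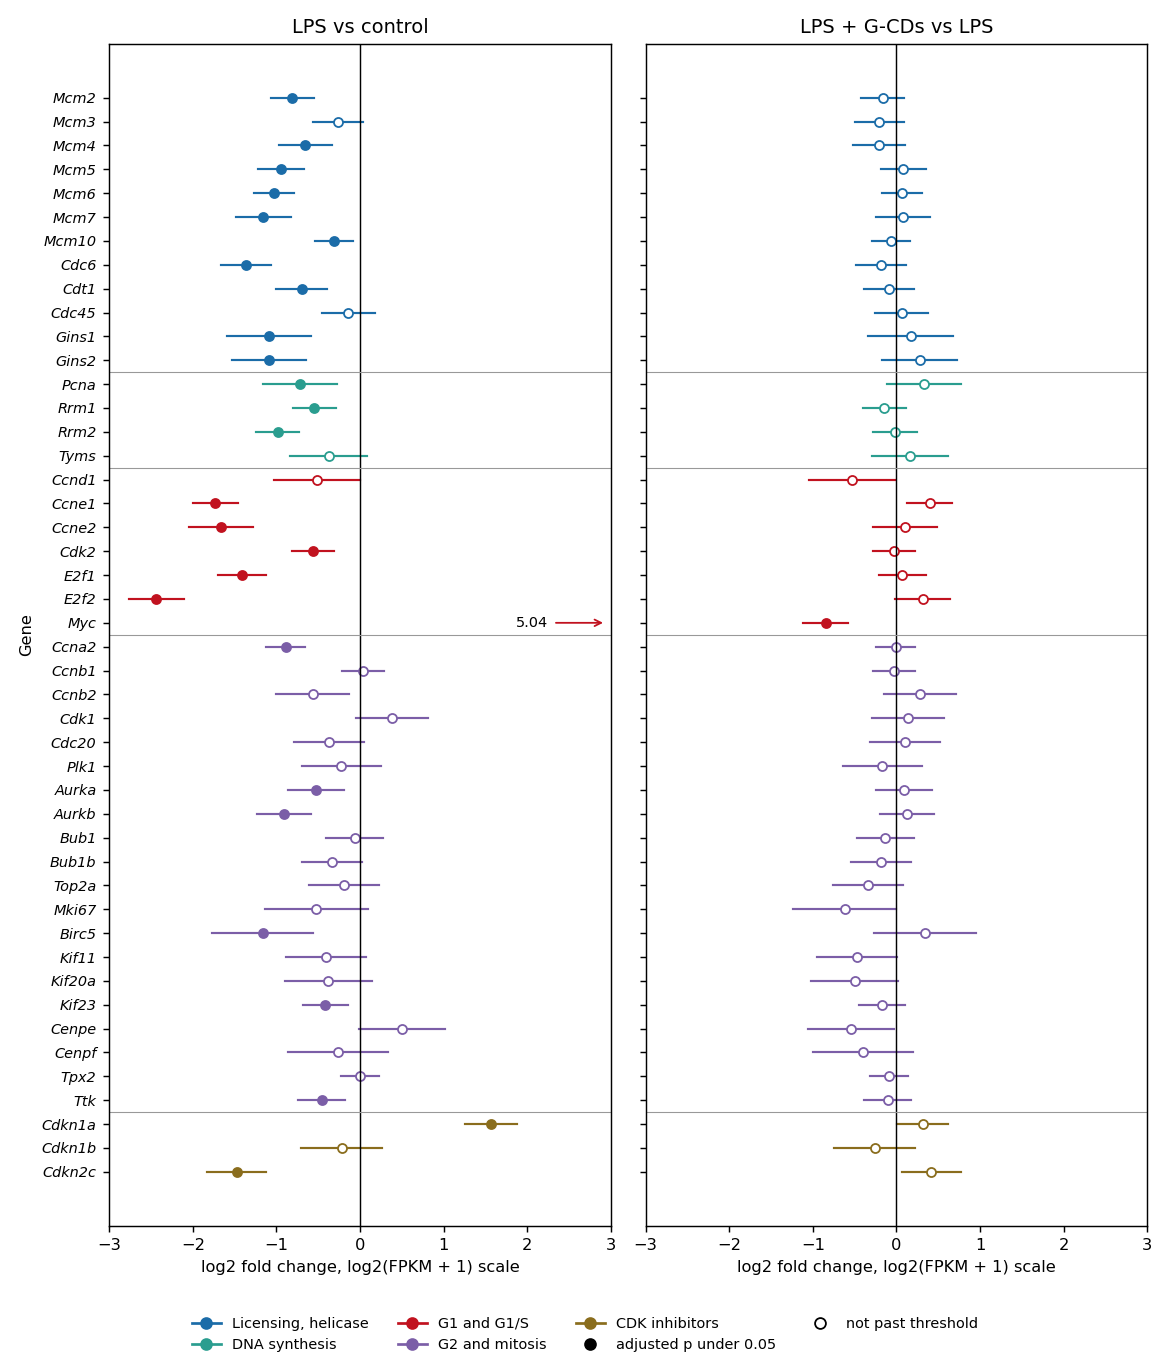
Log2 fold change on the log2(FPKM + 1) scale with its 95% interval for each of the 46 genes, for LPS against control (left) and LPS + G-CDs against LPS (right); filled points passed an adjusted p under 0.05, open points did not, and the arrow marks Myc at 5.04, past the axis. On the left 25 genes lie below 0 and pass, and on the right only Myc passes.

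For the other genes the intervals of the main fit are given, which rest on its scale and on the spread between these libraries. The 95% interval of the log2 fold change lay within a 2-fold change in either direction for 40 of the 46 genes, and within 1.5-fold for 26, the exceptions to the first being Ccnd1, Cenpe, Cenpf, Kif20a, Mki67 and Myc. The half-width of these intervals was 0.33 at the median and 0.23 to 0.61 over the genes. Mcm6, for example, was at 33.1 ± 0.88 FPKM with LPS and 34.7 ± 1.18 with LPS + G-CDs, an interval of -0.17 to 0.30. E2f1 was at 8.44 ± 0.78 and 8.92 ± 0.58 (-0.21 to 0.35), and Ccna2 at 25.9 ± 0.94 and 25.7 ± 1.72 (-0.24 to 0.22). These values do not show that G-CDs left the genes as they were, only that a change of 2-fold lay outside the intervals.

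Some genes were apart in every library without passing the test. LPS + G-CDs values lay wholly above LPS values for 3 of the 46 genes (background 12.9%) and wholly below for 8 (background 15.0%), which is near or under the background. The 3 were Ccne1, which had 7.59, 8.73 and 8.88 FPKM against 6.33, 6.53 and 5.56 (log2 fold change 0.40, adjusted p = 0.24), Cdkn1a, and Cdkn2c. Cdkn1a was at 225.1, 259.0 and 271.3 against 210.9, 185.1 and 210.9 (log2 fold change 0.31, SE 0.14, adjusted p = 0.32). Cdkn2c was at 5.20, 5.13 and 6.20 against 4.15, 3.69 and 3.74 (log2 fold change 0.42, SE 0.16, adjusted p = 0.30), and Cdkn1b overlapped at 7.69, 5.40 and 4.21 against 7.58, 7.18 and 6.08 (log2 fold change -0.26, SE 0.21, adjusted p = 0.47). The 8 lower genes were Myc, Ccnd1, Mcm2, Mcm3, Rrm1, Plk1, Kif11 and Kif20a. Ccnd1 was at 62.3, 54.9 and 37.9 FPKM against 74.8, 73.5 and 72.6 (log2 fold change -0.53, SE 0.23, adjusted p = 0.32), and its lowest value was in LPS + G-CDs 3.

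The LPS + G-CDs libraries also differed among themselves along gene length. Across the 46 genes, the log2 fold change against LPS correlated with log10 gene length at r = -0.46, and at -0.69 over the 20 mitotic genes and -0.21 over all 11585 tested genes, points that share the same 6 libraries and that are given as a description. For the 7 of the 46 genes over 7500 bases (Mcm10, Rrm1, Top2a, Mki67, Kif23, Cenpe and Cenpf), the median difference from the LPS mean was -0.06, -0.33 and -0.68 in LPS + G-CDs 1, 2 and 3. For the 6 genes of at most 2600 bases (Gins1, Pcna, Ccnb2, Cdc20, Plk1 and Aurka) it was -0.16, 0.19 and 0.44. All tested genes of these lengths went the same way, at 0.005, -0.26 and -0.55 for 1903 long genes and at -0.03, 0.21 and 0.49 for 3913 short ones. Control 3 also stood apart in this direction, at -0.39 for the long and 0.25 for the short tested genes.

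Long mitotic genes show the pattern library by library. Mki67, a long gene, was at 44.3, 25.1 and 20.8 FPKM in LPS + G-CDs libraries against 45.98, 46.6 and 41.0 in LPS libraries (log2 fold change -0.62, SE 0.27, adjusted p = 0.32). Its level in LPS + G-CDs 1 was within the LPS range and the difference came from the other two libraries. Cenpe was at 17.5, 11.4 and 9.05 against 17.9, 20.4 and 16.9 (log2 fold change -0.55, SE 0.23, adjusted p = 0.32). Its LPS + G-CDs mean was 12.7 and its control mean 12.8. When the length trend of each library was subtracted before the fit, the log2 fold change of Mki67 went to -0.36, that of Cenpe to -0.33, that of Cenpf from -0.40 to -0.01 and that of Rrm1, a long gene outside mitosis, from -0.15 to 0.14. The part of gene length in these differences was otherwise not tested.

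**Figure D4:**
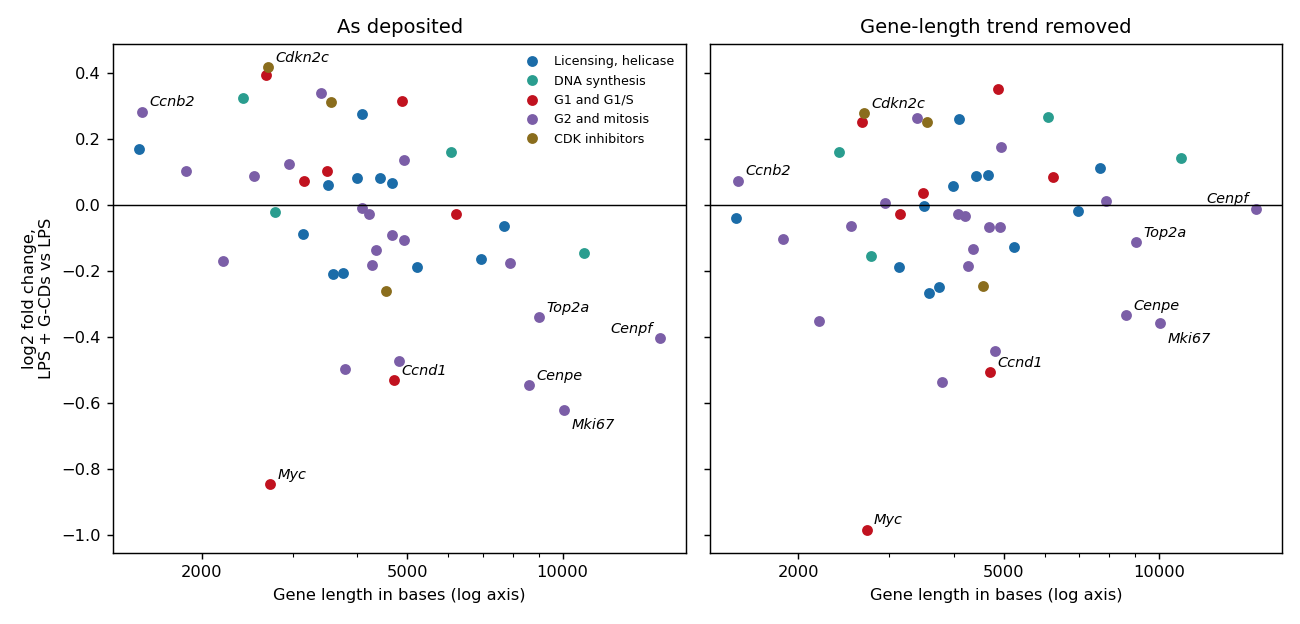
Log2 fold change of LPS + G-CDs against LPS for each of the 46 genes (points, coloured by role) by gene length in bases on a log axis, from the deposited values (left) and after the gene-length trend of each library was removed (right). On the left the long mitotic genes Cenpe, Cenpf, Mki67 and Top2a lie low; on the right Cenpf is at -0.01 and Myc remains the lowest point.

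The state of the program with both agents was described last, by LPS + G-CDs against control libraries, a comparison that shares its controls with the first. Of the 46 genes, 28 were lower, 2 higher and 16 did not pass, or 65.2% called against a background of 25.3% (12.4% lower and 12.8% higher). The median log2 fold change was -0.68 over the 46 genes and 0.02 over all tested genes. With TPM these medians were -1.15 and -0.38. The licensing and helicase genes numbered 11 lower of 12 (7 without LPS + G-CDs 2, with Gins1, Gins2, Mcm3 and Mcm10 lost), those of DNA synthesis 2 of 4 (4 with TPM), those of G1/S 6 lower and 1 higher of 7, those of mitosis 8 of 20 (5 without control 2, 14 after removal of the gene-length trend and 17 with TPM), and the inhibitors 1 lower and 1 higher of 3 (2 lower without LPS + G-CDs 1, Cdkn1b being gained). E2f2 was lowest again, at 1.73, 2.31 and 2.67 FPKM (log2 fold change -2.12, SE 0.15, adjusted p = 1.0e-05). Ccne2 was at 3.30, 3.38 and 2.36 (-1.55, adjusted p = 0.00019), and Cdc6 at 4.23, 4.56 and 4.30 (-1.55, adjusted p = 4.3e-05). Ccne1 was at 7.59, 8.73 and 8.88 FPKM (-1.33, SE 0.12, adjusted p = 5.2e-05) and E2f1 at 8.79, 8.42 and 9.55 (-1.34, SE 0.12, adjusted p = 7.0e-05). Mcm7, uncertain for its shared words, was between 22.2 and 28.3 (-1.08, SE 0.14, adjusted p = 0.00065). All of these values lay below all control values. Of the 30 called genes, 22 were called under each of the 18 alternative settings.

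Several genes passed here that had not passed in LPS against control. Ccnd1 fell by 1.05 on the log2 scale (SE 0.23, adjusted p = 0.0089) and Mki67 by 1.14 (SE 0.27, adjusted p = 0.014), the latter losing its call without control 2 or without LPS + G-CDs 2. Pcna (log2 fold change -0.39, adjusted p = 0.19), Aurka (-0.44, adjusted p = 0.060) and Birc5 (-0.83, SE 0.27, adjusted p = 0.052) were lower with LPS and did not pass here, and Birc5 was at 11.1, 15.9 and 25.3 FPKM, with LPS + G-CDs 3 inside the control range. The other large differences that did not pass were those of Cenpf (-0.67, adjusted p = 0.10) and Top2a (-0.53, adjusted p = 0.065). After removal of the gene-length trend Cenpf (-0.56, adjusted p = 0.0061), Top2a (-0.48, adjusted p = 0.0053), Birc5 (-0.92, adjusted p = 0.016), Pcna (-0.58, adjusted p = 0.010) and Aurka (-0.62, adjusted p = 0.0039) were called lower, as were Ccnb2 and Cdc20, whereas Mcm10 lost its call. Myc remained 249-fold above control by reads relative to the library size behind FPKM (exact 95% interval 139 to 499, for counting error only). Its log2 fold change was 4.19 (adjusted p = 4.3e-08), and Cdkn1a was at 371.9% of the control mean (log2 fold change 1.88, SE 0.14, adjusted p = 1.4e-05). Cdkn2c stayed lower (-1.06, adjusted p = 0.0012), and Cdkn1b did not pass (-0.48, adjusted p = 0.14). Whether any of these genes differed between the treated groups was addressed by the direct comparison above. Myc alone passed there, and the genes that did not pass were not shown to be equal.

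Of the further lists, 32 of 51 replication genes were lower and 0 higher with both agents. In the mitotic list 24 of 70 were lower, 1 was higher and 45 did not pass, and in the list of G1/S control 8 of 24 were lower, 2 were higher and 14 did not pass. Against the background of 12.4% lower and 12.8% higher, lower genes were more frequent in all 3 lists. Higher genes were less frequent in the replication and mitotic lists and near the background in that of G1/S control. Ung (log2 fold change -2.34), Tk1 (-2.22) and Wdhd1 (-1.93), a replisome adaptor, were the lowest replication genes. Among mitotic genes, Fbxo5 (-1.62), Foxm1 (-1.51), the transcription factor of the G2 and mitotic program, and Espl1 (-1.25), separase, were lowest. Foxm1 was at 24.98, 26.7 and 22.2 FPKM in control libraries and at 9.05, 8.59 and 6.48 in LPS + G-CDs libraries, without overlap. The 1 mitotic gene that was higher was Ube2s (0.85, adjusted p = 0.036), a ubiquitin-conjugating enzyme of the anaphase-promoting complex, at 45.97, 65.1 and 96.5 FPKM with the highest value in LPS + G-CDs 3, and it was called in 9 of 18 alternative settings. In the list of G1/S control E2f8 (-1.73), E2f7 (-1.14) and Rbl2 (-1.01) were lowest, and the 2 higher genes were Cdk6 (0.71, called in 9 of 18 alternative settings) and E2f5 (0.56).

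In the list of inhibitors and p53 targets 7 of the 19 genes tested were higher and 4 lower, and among the partners and relatives of Myc 3 of 9 were higher and 2 lower, beside the same background of 12.8% and 12.4%. Gadd45b (4.17), Sesn2 (1.69) and Btg2 (1.04) were the highest of the inhibitor list, and Sesn1 (-1.91), Wee1 (-1.48) and Chek2 (-1.07) the lowest. Of the Myc relatives Max (0.79), Mlx (0.76) and Mxd1 (0.72) were higher, and Mycn (-1.11) and Mnt (-1.07) lower. Wee1, the kinase that holds Cdk1 inactive, was at 17.7, 16.6 and 15.2 FPKM in control and 5.40, 5.81 and 4.58 in LPS + G-CDs libraries.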

How the data were processed

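Poly(A) mRNA of the 9 samples was sequenced on an Illumina NovaSeq instrument, and the authors deposited FPKM values per gene and library with gene coordinates and gene lengths. The submitters' processing notes name GRCm38 and mm10, the aligner, the counting method and the test are not given in the sources used here, and the coordinates of 45 of the 46 genes equaled GENCODE mouse release 21. Every column of values was matched to a sample by name.

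FPKM was filtered (at least 1 in at least 3 libraries), transformed as log2(FPKM + 1) before a single linear model of the 3 groups was fitted in R 4.3.3 with limma 3.58.1 (eBayes, trend on, two-sided tests, Benjamini-Hochberg adjustment over all tested genes). Intervals are 95% intervals of that fit. A fold change on this scale understates that of low genes. FPKM multiplied by gene length gave whole reads, within 0.05 reads, which served for depth, for Myc and for an alternative with voom. Voom and the Myc ratios used the library sizes behind FPKM, so neither is a check of that scaling. Counting intervals cover counting error only. Tables were prepared in Python 3.11.15 (pandas 2.3.3). The fit was also run on simulated reads with a single shared spread and no gene-length trend. These libraries differ in both, so that run is not support for the results. The 18 alternatives were a pseudocount of 0.1, no filter, a stricter filter (mean FPKM of at least 2), TPM, median-of-ratios scaling, removal of each library's gene-length trend, no mean-variance trend, a replicate block, voom, and each library left out in turn. Between control and LPS, libraries with the same number deviated together from their groups (r = 0.103, 0.137 and 0.113). The main fit held no block, and the replicate number entered as a block only in an alternative. The labels do not say what a number stands for.

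Shared sequence was the percentage of 50-base words in the longest transcript of a gene that other genes' transcripts also hold. The members, the lists and the tests were chosen with earlier results of these data known. Statistics were given for the 10 largest called changes of each comparison, the 3 largest that were not called, every call with G-CDs, Myc, Ccnd1 and the CDK inhibitors, and log2 fold changes for up to 3 called rises and 3 called falls of each further list. Other genes were picked for mention after their values were seen.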

Additional observations from a re-analysis of the deposited data

How the results depend on the processing

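None of the 46 genes that was called turned direction under any of the 18 alternatives, and 1 that was not called, Ccnb1 in LPS + G-CDs against control (0.01), was called lower with TPM (-0.42). In LPS against control the number of the 46 genes that were lower was 25, and 20 to 26 with 1 library left out and 24 to 29 otherwise; the number higher was 2, and 2 to 3. All genes called numbered 3630, and 2478 to 4289 with 1 library left out. In LPS + G-CDs against LPS the single lower gene, Myc, was not called with a pseudocount of 0.1 (0 genes) or with voom (0 genes), and the number was 0 to 1 with 1 library left out. All genes called there numbered 57, and 25 with a pseudocount of 0.1, 27 with TPM, 87 without the gene-length trend and 11 (without LPS + G-CDs 2) to 256 (without LPS + G-CDs 1) with 1 library left out, of causes not tested. The share of these calls that were higher was 50.9%, and 72% with a pseudocount of 0.1. In LPS + G-CDs against control the 46 genes numbered 28 lower, and 22 to 30 with 1 library left out and 26 to 40 otherwise, the 40 being with TPM, and all genes called numbered 2927, and 1914 (without LPS + G-CDs 2) to 3245 with 1 library left out. There TPM moved the share of higher calls over all genes from 50.8% to 19.1% and the median of all genes to -0.38.

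With the replicate number as a block, 26 of the 46 genes were lower and 2 higher in LPS against control, Ccnb2 and Ccnd1 being gained and Mcm10 lost, 1 was lower in LPS + G-CDs against LPS, and 31 were lower and 3 higher in LPS + G-CDs against control, where Birc5 (adjusted p = 0.036), Cenpf (0.026) and Top2a (0.025) were gained with Cdk1. For LPS and LPS + G-CDs libraries the same-number correlations were 0.095, 0.0801 and 0.143, every library correlating best with its own number. For control and LPS + G-CDs libraries they were 0.28, 0.0575 and 0.653, with number 2 correlating best with number 1. Whether a number marks a pair of libraries was not settled, and the main fit used no block in any comparison. The blocked fit changed no call of the 46 genes in LPS + G-CDs against LPS. There, differences as large as -0.62 (Mki67) were not called at 3 libraries a group.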
